A study of Homo sapiens with 6 samples.

Results

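Both keratin gene clusters were examined for H3K4me3 and H3K27me3 in H1299, a long-established line from a human non-small cell lung carcinoma. Members were the intervals of 4 deposited peak lists (hg19) that overlap the type II keratin cluster, chr12:52560000-53350000, or the type I cluster, chr17:38800000-39800000. They numbered 349 of 275570 intervals in all, after rows with the same interval were joined. The control lists held 26 H3K4me3 and 157 H3K27me3 members, and the metformin lists 25 and 141. Each list came from 1 ChIP-seq library of micrococcal nuclease-cut, cross-linked chromatin. Control cells were untreated and the other cells received 5 mM metformin, a biguanide drug, for a time not given in the sources used here. Both groups were the same cell line, and 2 input libraries were not analysed here. With 1 library per mark and condition no difference between conditions could be tested, and the drug and the library cannot be told apart.

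Keratins are the intermediate filament proteins of epithelial cells, and each filament is built from pairs of a type I (acidic) and a type II (basic to neutral) chain. The genes lie in 2 clusters, one for each type, and are switched on in pairs as epithelia differentiate. KRT8 and KRT18 pair in simple epithelia such as those of the lung, KRT5 and KRT14 in the basal layer of stratified epithelia, and KRT1 and KRT10 above it. Other pairs build the hair shaft and its root sheath, and keratin-associated proteins cross-link the filaments of hair. H3K4me3 marks mainly the starts of active or poised genes. H3K27me3 is laid down by Polycomb repressive complex 2 and often covers long stretches of silent developmental and tissue-specific genes.

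RefSeq's gene order on GRCh38.p14 gives the type II cluster 27 protein-coding genes from KRT80 to KRT18, all of them keratins. It begins with KRT80 and KRT7, goes on through the hair keratins (KRT86, KRT81, KRT83, KRT85, KRT84 and KRT82), KRT75, the wound-responsive KRT6B, KRT6C and KRT6A, and KRT5. The root sheath keratins KRT71, KRT74, KRT72 and KRT73 follow, then KRT2, KRT1 and KRT77 of epidermis and sweat glands, and a group with the corneal KRT3 and the mucosal KRT4 and KRT76. KRT8 and KRT18, the only type I keratin of this cluster, come last. The type I cluster, from KRT222 to KRT17, holds 28 keratin genes and 34 genes of keratin-associated proteins. SMARCE1, a chromatin remodelling subunit, is its neighbour on one side and EIF1, a translation initiation factor, lies beyond the other side. Gene positions on hg19 were not used here, so intervals are given by position and none is assigned to a gene. The exception is the last part of the type II window, which the definition of the cluster gives as the end with KRT8 and KRT18.

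Promoters of keratin genes with an entry in RefSeq's table are shown first, because what they share in sequence did not enter the choice of members. Of 55 keratin genes listed by tissue, 34 had an entry in that table, with 250 bases before and 50 after a start. Matches were uneven by tissue, with 14 of 17 hair shaft genes, 8 of 9 root sheath genes, 2 of 7 simple epithelial genes and 1 of 8 basal and wound-responsive genes. Genes with no entry were KRT1, KRT6A, KRT6B, KRT6C, KRT7, KRT13, KRT14, KRT15, KRT16, KRT17, KRT18, KRT19, KRT23, KRT72, KRT77, KRT78, KRT80, KRT81, KRT83, KRT86 and KRT222. The entry of KRT8 is for a start inside the RefSeq span of the gene, not at its outer end, so its values do not describe the promoter at that end. None of these 34 entries, which are mainly of hair and root sheath keratins, was rich in CpG, defined as an observed to expected CpG ratio of at least 0.6 with at least 50% G and C. Among all 27305 promoters of the table, 46.9% were. A keratin promoter held a median of 2 CG pairs in its 300 bases, with a range from 0 to 8, against a median of 14 over all promoters. The 250 bases before the start are printed for 5 keratins, with CG pairs in capitals. They are a hair shaft (KRT85), a basal (KRT5) and an epidermal keratin (KRT2) of chromosome 12, and the epidermal KRT10 and the palm and sole keratin KRT9 of chromosome 17. SMARCE1, the neighbour of the type I cluster, is added for contrast. Sequences are RefSeq's on GRCh38.p14, 5′ to 3′ on the gene's strand, and their positions cannot be compared with the hg19 positions of the intervals.

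KRT85 (chr12:52367482-52367731, minus strand): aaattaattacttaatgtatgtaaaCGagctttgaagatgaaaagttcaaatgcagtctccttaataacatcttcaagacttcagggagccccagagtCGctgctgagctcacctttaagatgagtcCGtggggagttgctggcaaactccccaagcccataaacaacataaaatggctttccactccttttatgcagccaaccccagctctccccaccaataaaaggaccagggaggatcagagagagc
KRT5 (chr12:52520395-52520644, minus strand): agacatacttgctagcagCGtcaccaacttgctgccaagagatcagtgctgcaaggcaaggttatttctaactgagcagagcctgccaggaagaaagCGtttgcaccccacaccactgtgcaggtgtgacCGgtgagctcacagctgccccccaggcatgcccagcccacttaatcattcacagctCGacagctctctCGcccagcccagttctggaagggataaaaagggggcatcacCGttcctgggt
KRT2 (chr12:52652212-52652461, minus strand): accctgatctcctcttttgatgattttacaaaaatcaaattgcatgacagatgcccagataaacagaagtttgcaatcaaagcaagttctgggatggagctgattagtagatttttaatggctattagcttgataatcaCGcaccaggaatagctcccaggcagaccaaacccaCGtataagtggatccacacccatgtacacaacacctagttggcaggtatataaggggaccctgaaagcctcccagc
KRT10 (chr17:40822615-40822864, minus strand): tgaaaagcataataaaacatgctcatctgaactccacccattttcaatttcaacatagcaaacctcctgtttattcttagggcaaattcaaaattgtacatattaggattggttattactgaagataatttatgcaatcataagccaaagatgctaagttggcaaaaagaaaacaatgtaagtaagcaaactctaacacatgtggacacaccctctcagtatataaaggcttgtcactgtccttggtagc
KRT9 (chr17:41572060-41572309, minus strand): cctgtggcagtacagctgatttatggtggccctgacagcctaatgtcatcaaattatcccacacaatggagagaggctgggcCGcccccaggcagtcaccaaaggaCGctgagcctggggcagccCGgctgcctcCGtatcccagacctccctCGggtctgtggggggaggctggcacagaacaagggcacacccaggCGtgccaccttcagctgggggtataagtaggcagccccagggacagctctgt
SMARCE1 (chr17:40647819-40648068, minus strand): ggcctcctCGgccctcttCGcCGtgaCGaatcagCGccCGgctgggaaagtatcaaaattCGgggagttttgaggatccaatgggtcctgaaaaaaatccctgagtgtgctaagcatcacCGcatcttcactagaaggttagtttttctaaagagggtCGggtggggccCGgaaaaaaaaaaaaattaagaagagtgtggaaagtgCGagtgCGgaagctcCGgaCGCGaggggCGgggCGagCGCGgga

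The KRT10 stretch held 0 CG pairs, KRT2 held 2, KRT85 held 3, and KRT5 and KRT9 held 6 each. The SMARCE1 stretch held 19. The largest observed to expected CpG ratio among the keratins was 0.46, at KRT40, a hair keratin, below the 0.58 median of all promoters. SMARCE1 and EIF1 stood at 1.10 and 0.74. The motif TATAAA, searched on both strands, was found in 20 of the 34 keratin promoters (58.8%) and in 11.95% of all promoters of the same length. The keratin promoters held a median of 45.7% G and C, against 58.3% over all promoters, and the motif counts were not adjusted for this. The motif was found in 10 of 14 hair shaft promoters, in 6 of 8 root sheath promoters, in 3 of 6 mucosal and corneal ones, in 1 of 3 suprabasal ones, and in none of the 3 other entries (KRT5, KRT20 and the inner start of KRT8). It was also present in 29 of 33 promoters of keratin-associated proteins. CpG pairs and this motif are given as a description of the sequence. Whether they bear on the marks was not tested.

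**Figure D1:**
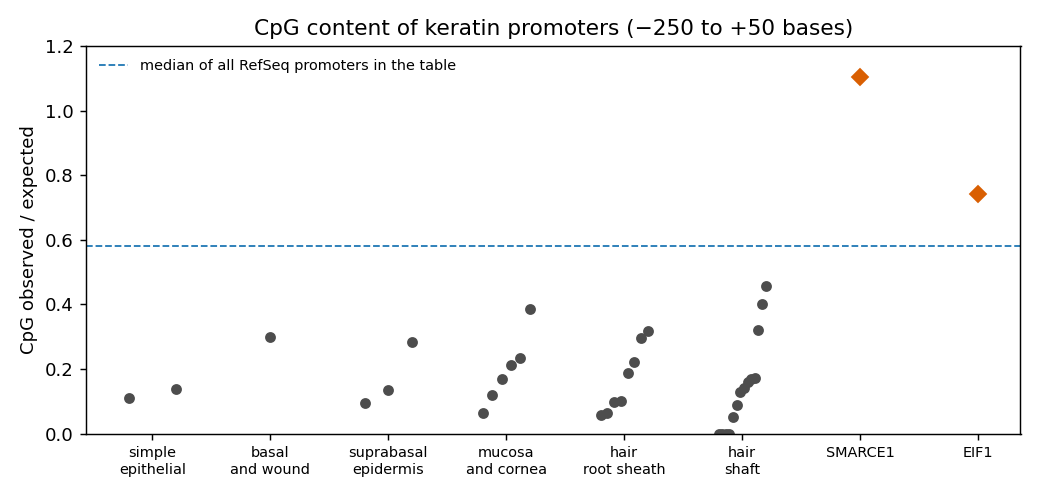
Observed to expected CpG ratio (y axis, no unit) of the 34 keratin promoters by tissue group (grey points, 1 per gene) and of the 2 neighbouring genes SMARCE1 and EIF1 (orange diamonds). The dashed line is the median of all RefSeq promoters in the table, 0.58, and every keratin point lies below it.

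Most of the type II cluster lay under H3K27me3 in both conditions, while its 2 ends carried H3K4me3 and no H3K27me3. H3K27me3 covered 405.7 kb of the 790 kb window in control cells (51.4%) and 447 kb after metformin (56.6%). All of it lay between chr12:52668728 and chr12:53257487. In that stretch of 588.8 kb, 68.9% was covered in control cells and 75.9% after metformin. From 150 to 700 kb into the window, the share of each 50 kb bin under H3K27me3 ran from 54.1% to 89.8% in control cells. After metformin it ran from 72.4% to 90.6%. Of the 11 bins, 9 had more coverage after metformin and 2 had less. The 108.7 kb before the stretch and the 92.5 kb after it had no H3K27me3 interval in either list. The stretch itself held 1 H3K4me3 interval in control cells and 3 after metformin, all at chr12:52672351-52674964, near its start.

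**Figure D2:**
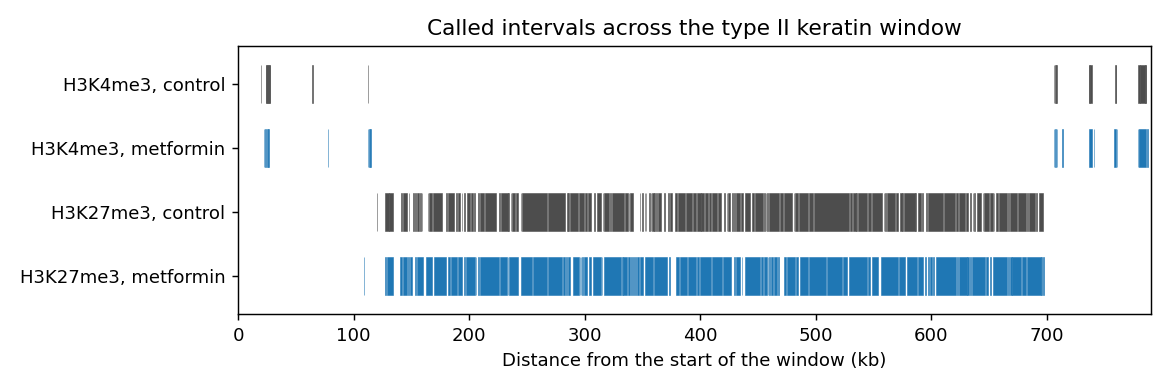
Intervals of each list (rows) along the type II window, with the distance from the window start in kb on the x axis. H3K27me3 fills the middle of the window in both conditions, and H3K4me3 intervals lie only toward the 2 ends.

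**Figure D3:**
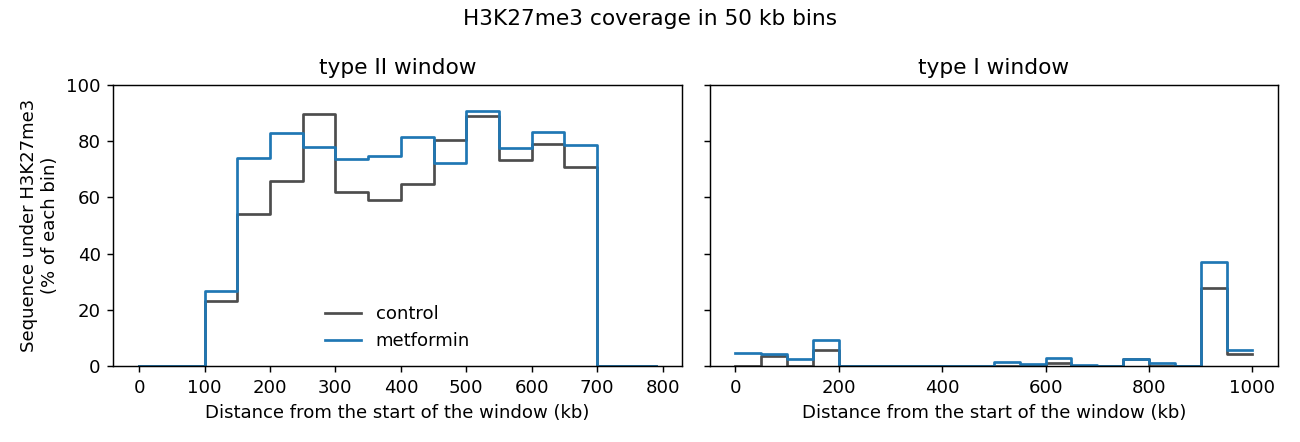
Share of each bin under H3K27me3 (y axis, percent; bins of 50 kb, the last of the type II window 40 kb) against the distance from the window start in kb, for control (grey) and metformin (blue), with 1 library per line. The type II window rises to a plateau that ends at 700 kb, and the type I window stays low except in the bin from 900 to 950 kb.

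Few tiles of this size carried as much of the mark. Chromosomes 1 to 22 and X were divided into 3827 tiles of 790 kb. The median tile held 2.31 kb of H3K27me3 in the control list and 2.77 kb in the metformin list, and 1 tile in each list held at least as much as the type II window. Tiles began at fixed positions and could split a long region, while the window was placed on the cluster, so this count favours the window. The 737.5 kb at chr12:2164264-2901807 held 553.7 kb of control H3K27me3, against 468.6 kb in the fullest control tile. The stretch was also free of H3K4me3 over most of its length. From the last interval of the proximal side to the first of the distal side, 593.4 kb in control cells and 591.1 kb after metformin had 0 H3K4me3 intervals. H3K27me3 covered 68.4% and 75.5% of this gap. Gaps of at least 500 kb between neighbouring H3K4me3 intervals numbered 1064 in the control list and 1077 in the metformin list, with medians of 0.16% under H3K27me3 in both. By that share, the keratin gap ranked 3 in control cells and 1 after metformin. The other 2 of the first 3 were the same in both lists and also lay on chromosome 12, at chr12:2164264-2901807 (75.1%) and chr12:5542855-6053456 (75.8%) in the control list. Tiles and gaps were not matched to the clusters in number of genes, and none was left out for having few or no genes. The ranks describe these libraries and carry no test.

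The H3K27me3 intervals of the type II window were long, and most were overlapped by an interval of the other condition. Their mean width was 3050 bp in control cells (133 intervals) and 4470 bp after metformin (100 intervals), against 999 bp and 1085 bp over the whole lists. Intervals of at least 5 kb made up 17.3% and 38.0% of them, against 1.54% and 1.99% of all intervals. Their values, read as −log10 q, had medians of 1.83 and 1.92, against 1.51 in the whole control list and 1.505 in the whole metformin list. Of the control intervals, 124 of 133 (93.2%, exact Clopper-Pearson 95% interval 87.5 to 96.9, counting error only) were overlapped by the metformin list by at least 1 bp, against 48.3% of all control intervals. Of the metformin intervals, 91 of 100 (91.0%, 83.6 to 95.8) were overlapped by the control list, against 46.3% of all. Because each list covered 68.9% or 75.9% of the stretch, an overlap of 1 bp is easily met there at any width, and these shares do not show that the same intervals were found again. By width, among control intervals under 500 bp, 18 of 21 in the window were overlapped, against 29.1% of all of that width. From 500 bp to 2 kb it was 48 of 53 (90.6%), against 52.7%. Among metformin intervals under 500 bp it was 6 of 10 (60.0%), against 26.1% of all of that width. From 500 bp to 2 kb it was 29 of 34 (85.3%), against 49.0%.

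The same sequence was covered in both conditions over 344.7 kb, which is 85.0% of the control and 77.1% of the metformin length. Over the whole lists 43.1% and 39.5% of the covered length was shared. Those lists are sparse, while the metformin list covered 75.9% of the stretch and the control list 68.9%. Lists placed there without regard to each other would already share about 75.9% of the control and 68.9% of the metformin length. The shares of 85.0% and 77.1% are to be read beside these values. A further 60.9 kb was covered only in control cells and 102.2 kb only after metformin. The covered length was thus 1.10 times as large after metformin, from fewer and longer intervals, at length-weighted mean values of 1.97 and 2.07. Over the whole H3K27me3 lists it was 1.09 times as large. Of the 124 control intervals with a partner, 86 had a higher-valued one after metformin. With the type I window included it was 94 of 137, against 54.8% of all shared control H3K27me3 intervals. The highest-valued partner was used, and a wide interval can have several. Control intervals had a mean width of 3050 bp in the type II window, against 999 bp over the whole list. Whether the larger share comes from this width was not tested.

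The long intervals show how the stretch was divided differently in the 2 lists. The widest control interval was chr12:53058333-53088875, at 30.5 kb, followed by chr12:52806166-52827500 (21.3 kb) and chr12:52828298-52843508 (15.2 kb). Metformin intervals covered 90.8%, 94.9% and 94.8% of these 3. After metformin the widest was chr12:53163860-53181265, at 17.4 kb, then chr12:52769306-52785848 (16.5 kb) and chr12:53088733-53104576 (15.8 kb). Control intervals covered 93.7%, 79.2% and 78.1% of them. With intervals within 1 kb joined first, the window held 61 control and 47 metformin intervals, and the widest became 58.7 kb and 43.6 kb.

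The highest-valued H3K27me3 intervals were shorter. In control cells chr12:53120168-53121274 (value 2.81) and its neighbour chr12:53122139-53128559 (2.80) led, followed by chr12:53204872-53205076 (2.65), and metformin intervals covered all 3 in full. After metformin chr12:53210679-53211897 (3.39), chr12:52855659-52856159 (3.34) and chr12:52901808-52902686 (3.25) led, and control intervals covered 40.4%, 100% and 56.5% of them. Intervals of a single list lay among shared ones. The 9 control-only intervals had a median width of 573 bp and lay a median of 344 bp from the nearest metformin interval. For the 9 metformin-only intervals these were 645 bp and 701 bp. The highest-valued of them were chr12:53029427-53031451 in control cells (2.12) and chr12:52875067-52875405 after metformin (2.77).

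The end of the type II window that holds KRT8 and KRT18, the keratin pair of simple epithelia, carried H3K4me3 alone. Its last 70 kb, from chr12:53280001, held 9 H3K4me3 intervals in control cells and 8 after metformin, and 0 H3K27me3 intervals in both. H3K4me3 covered 9.03 kb there in control cells and 11.5 kb after metformin, and 8.37 kb was covered in both. H3K27me3 ended at chr12:53256703 in control cells and at chr12:53257487 after metformin. The first H3K4me3 interval followed 9.53 kb and 8.62 kb further on. The change from one mark to the other thus fell at nearly the same place in both conditions.

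Intervals of both H3K4me3 lists that lay within 5 kb of each other were joined into 12 sites, of which 9 held both conditions, 1 only control and 2 only metformin. Metformin intervals covered more sequence at 6 of the 9 and had the higher top value at 7. For single intervals, 13 of the 18 control members with a partner had a higher-valued one after metformin. Over the whole H3K4me3 lists this held for 76.9% of shared control intervals, so the share among keratin members was close to that of all.

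The site with the highest values, chr12:53339321-53347730, lay at the KRT8 and KRT18 end and spanned 8.41 kb. In control cells it held 4 intervals that covered 6.29 kb. The widest of them, chr12:53341284-53345298, was 4015 bp long and had a top value of 44.9, with 9 sub-peaks. The others were chr12:53339518-53341103 (value 4.90), chr12:53345535-53345901 (5.37) and chr12:53346069-53346392 (2.85). After metformin 1 interval, chr12:53340193-53346534, covered 3 of these 4 in full and part of chr12:53339518-53341103, with 6342 bp, 16 sub-peaks and a top value of 67.7. The other metformin intervals were chr12:53339321-53339516 (6.56), chr12:53339800-53339998 (3.05) and chr12:53347229-53347730 (3.71). Both lists therefore covered this site broadly, over 6.29 kb and 7.24 kb, and 5816 bp were covered in both.

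A second site of the KRT8 and KRT18 end, chr12:53296577-53301407, was covered over 1929 bp in control cells and 2690 bp after metformin. In control cells it was split into chr12:53296671-53296895 (value 2.91), chr12:53297076-53297618 (12.1) and chr12:53297799-53298959 (11.6). After metformin chr12:53296577-53299072 (32.4) covered all 3 in full, and a short interval, chr12:53301214-53301407 (1.34), had no control partner. The third site, chr12:53318496-53321189, had a lower top value than the second in both lists. Its widest interval was chr12:53319116-53319757 (5.26) in control cells and chr12:53318496-53319740 (7.30) after metformin. Short intervals also lay at chr12:53320326-53320494 in control cells (2.19) and at chr12:53320863-53321189 after metformin (2.28), and they did not overlap.

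The first site after the H3K27me3 stretch, chr12:53266109-53273868, differed more in covered length between the lists than the 3 sites after it. Control intervals covered 1147 bp with a top value of 7.58. Metformin intervals covered 2642 bp, which is 2.30 times as much, with a top value of 26.99 at chr12:53267124-53268575. It also held chr12:53273663-53273868, the highest-valued H3K4me3 member without a control partner (9.31), which is 206 bp long.

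**Figure D4:**
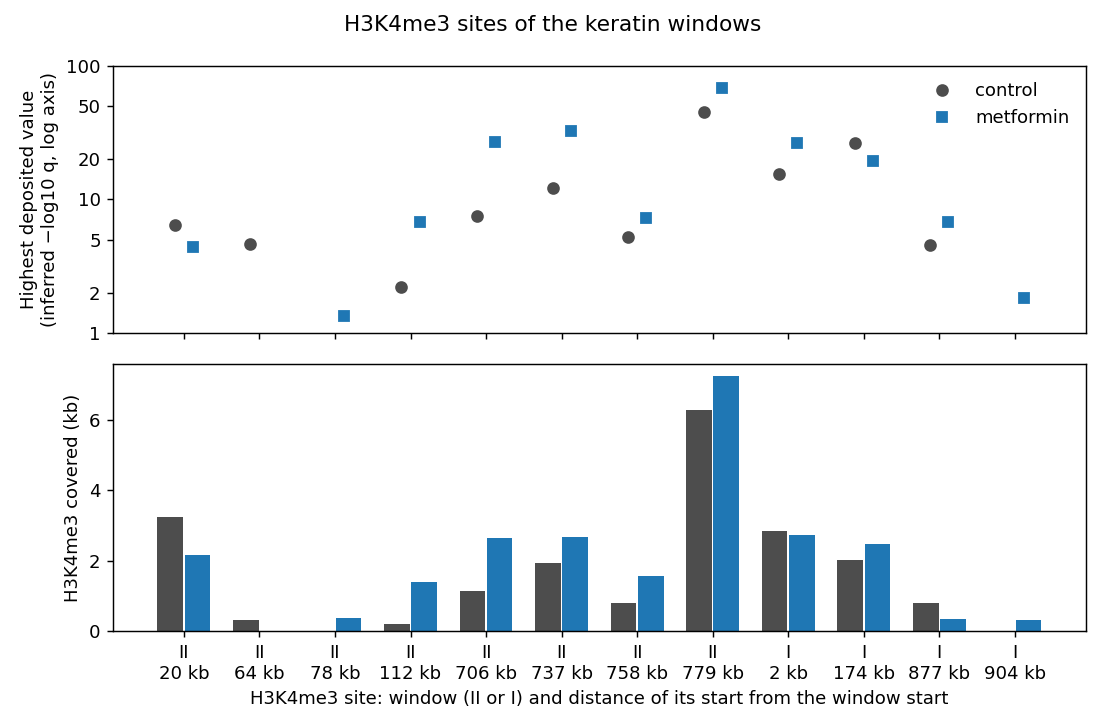
Highest deposited value (upper panel, inferred −log10 q on a log axis) and covered length in kb (lower panel) of the 12 H3K4me3 sites, named by window and by distance from the window start, in control (grey) and metformin (blue), with 1 library each. The site 779 kb into the type II window is the highest and longest in both, and the site at 20 kb is shorter after metformin.

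The other end of the type II window, where RefSeq's order begins with KRT80, had top H3K4me3 values of 6.46 (control) and 6.80 (metformin). These were below the 44.9 and 67.7 of the KRT8 and KRT18 end, but above the whole-list medians of 5.73 and 6.31. The site chr12:52579556-52587890 held 7 control intervals over 3235 bp and 4 metformin intervals over 2168 bp. Their top values were 6.46 at chr12:52585210-52585791 in control cells and 4.40 at chr12:52585244-52585861 after metformin. Its covered length and top value were thus lower after metformin, opposite to the 4 sites of the other end, and 1078 bp were covered in both. Further in, chr12:52624381-52624698 was found only in control cells (value 4.68) and chr12:52637631-52637991 only after metformin (1.34). At chr12:52672351-52674964, next to the first H3K27me3 intervals, control H3K4me3 covered 201 bp (top value 2.21) and metformin H3K4me3 1400 bp (6.80). The only H3K27me3 interval before this site, chr12:52668728-52669384, was in the metformin list and had a value of 1.299.

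H3K4me3 covered 13.9 kb of the type II window in control cells and 18.1 kb after metformin, 1.297 times as much. The intervals numbered 21 and 20. In covered length the whole lists differed by 1.12 times and chromosome 12 by 1.07 times. Length-weighted mean values were 16.9 and 32.2, against 25.5 and 30.3 over the whole lists, while median values were 4.23 and 3.57. Each interval carries its highest sub-peak value over its full width. The metformin mean thus leans on chr12:53340193-53346534 (6342 bp, value 67.7). Of the control members of both windows, 18 of 26 (69.2%, 48.2 to 85.7) had a metformin partner, against 77.3% of all H3K4me3 control intervals. Of the metformin members, 13 of 25 (52.0%, 31.3 to 72.2) had a control partner, against 67.3% of all. Both background shares lie within these wide intervals. The limits count each member as separate, although the members of both lists fall into 12 joined sites, so this comparison is not a test.

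The type I cluster did not show such a stretch. H3K27me3 covered 22.7 kb of its 1000 kb in control cells (2.27%) and 36.4 kb after metformin (3.64%), in 24 and 41 intervals. Most of it in both lists lay in the last 100 kb, with 16 intervals in each list, 16.1 kb in control cells and 21.4 kb after metformin. In the first 900 kb, 8 control intervals covered 6.60 kb and 25 metformin intervals covered 15.1 kb, and 0.677 kb was shared. Between 200 and 500 kb into the window neither list held an interval of either mark. Of 3024 tiles of 1000 kb, 31.0% held at least as much control H3K27me3 as this window and 25.1% at least as much metformin H3K27me3.

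**Figure D5:**
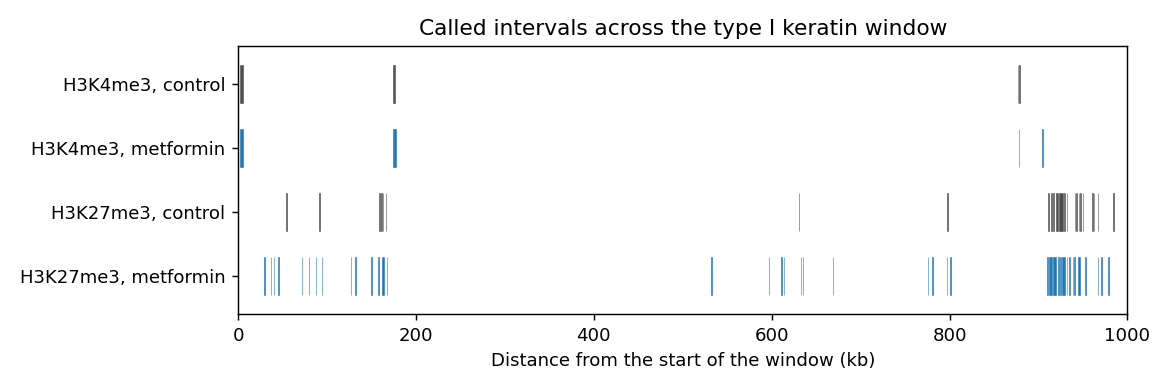
Intervals of each list (rows) along the type I window, with the distance from the window start in kb on the x axis. H3K27me3 intervals gather in the last 100 kb, and H3K4me3 lies at a few short sites, the widest of them 2 kb from the start.

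The H3K27me3 intervals of the type I window were short, and their sharing is given beside that of the whole lists. Of the control intervals, 13 of 24 (54.2%, 32.8 to 74.4) had a metformin partner, beside 48.3% of the whole list. Of the metformin intervals, 12 of 41 (29.3%, 16.1 to 45.5) had a control partner, beside 46.3%. Their median widths, 784 bp and 619 bp, were close to the 642 bp and 687 bp of all H3K27me3 intervals. The widest were chr17:39723035-39727643 in control cells (4.61 kb, 62.0% of it under metformin H3K27me3) and chr17:39725929-39729462 after metformin (3.53 kb, 72.7% under control H3K27me3). They overlapped each other, so the longest interval fell in the same region in both lists. The next in width were chr17:39746453-39747994 and chr17:39720001-39721483 in control cells, and chr17:39715984-39719231 and chr17:39711452-39713896 after metformin.

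By value, chr17:39750080-39750310 led in control cells (3.08) and had no metformin partner. It was followed by chr17:39745375-39745745 (2.24) and chr17:39720001-39721483 (2.18). After metformin chr17:39724421-39725104 (2.07), chr17:39766677-39766873 (1.90) and chr17:39711452-39713896 (1.89) were highest. Among the 29 metformin-only intervals the leading values were 1.88 at chr17:38926977-38927204 and at chr17:38871715-38872061, and 1.82 at chr17:38949724-38950207. The first of these lay 31493 bp from the nearest control interval, and the median distance of all 29 was 8490 bp.

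The covered length of H3K27me3 in the type I window was 1.61 times as large after metformin, against 1.16 on chromosome 17 and 1.09 over the whole lists. It came from more intervals (1.71 times as many) of a slightly smaller mean width (945 bp and 889 bp), at length-weighted mean values of 1.70 and 1.60. Of the covered length, 6.97 kb was shared, which is 30.7% of the control and 19.1% of the metformin length. On chromosome 17 as a whole 47.7% and 40.9% was shared.

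H3K4me3 lay at 4 sites of the type I window. The widest interval was at its very start, on the side of SMARCE1, with chr17:38802379-38805232 in control cells (2854 bp, top value 15.4) and chr17:38802669-38805402 after metformin (2734 bp, 26.4). A site of 2 intervals followed at chr17:38974148-38977101. In control cells it held chr17:38974238-38975049 (14.8) and chr17:38975448-38976648 (26.2), and after metformin chr17:38974148-38975007 (13.98) and chr17:38975497-38977101 (19.3). It was thus covered over more sequence after metformin, 2465 bp against 2013 bp, at a lower top value. Of the 3 type I sites present in both lists, the other two had a higher top value after metformin. The nearest H3K27me3 of the same condition lay 7377 bp from the control and 6334 bp from the metformin intervals.

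The remaining type I sites held only short intervals, of 466 bp at most, and these were not matched in position. Control cells had chr17:39677058-39677523 and chr17:39678399-39678721, both with a value of 4.55, and metformin-treated cells had chr17:39677648-39677994 (6.76) between them. The metformin list also held chr17:39704422-39704738 (1.84), which lay 25.7 kb from the nearest control interval. In all, H3K4me3 covered 5.66 kb of the window in control cells and 5.86 kb after metformin. Length-weighted mean values were 16.1 and 20.2, and median values 14.8 and 13.98. The covered length ratio of 1.04 fell to 0.92 when intervals within 1 kb were merged first, so no direction is given for it. Of 3024 tiles of 1000 kb, 61.5% held at least as much control H3K4me3, and 62.7% at least as much metformin H3K4me3, as this window.

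The 2 marks did not meet in either cluster. Of the 26 control and 25 metformin H3K4me3 members, 0 were overlapped by H3K27me3 of the same condition, with upper limits of 13.2% and 13.7% (exact Clopper-Pearson). The background was 2.78% of control and 4.55% of metformin H3K4me3 intervals, so a count of 0 among so few is not a result about the keratin clusters. Seen from the other mark, 0 of 157 control and 0 of 141 metformin H3K27me3 members were overlapped by H3K4me3, with upper limits of 2.32% and 2.58%, against 1.36% and 2.22% of all H3K27me3 intervals. The smallest distance between the marks was 2966 bp, after metformin, at chr12:52672351-52672863. In control cells it was 7377 bp, at chr17:38974238-38975049.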

How the data were processed

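ChIP-seq peak lists of 4 libraries were analysed, 1 for each mark (H3K4me3, H3K27me3) and condition (control, metformin). Per the submitters' processing notes, reads were handled with Trimmomatic 0.38, Bowtie and MACS2 on hg19 (GRCh37). Program options and the use of inputs as background are not stated in these sources. The deposited value of each interval was taken to be a −log10 q, because its minima (1.31 for H3K4me3, 1.01 and 1.00 for H3K27me3) lie just above the −log10 of 0.05 and of 0.1. Values rank intervals within a list and are not signal levels. Where values of both conditions are given, their difference cannot be told apart from a difference in read depth. Peaks were listed per library, and read depth is unknown.

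Rows with the same interval were joined, keeping the highest value. Positions are 1-based. Members were all intervals with at least 1 bp in a window. Overlaps, covered lengths and exact Clopper-Pearson intervals were computed with Python 3.11.15, numpy 2.4.6, pandas 2.3.3 and scipy 1.17.1. The overlap code was tested on simulated data made from the 50585 control H3K4me3 and 85579 control H3K27me3 intervals, thinned and moved, and 100% of the kept ones were recovered. No test between conditions was run.

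Named intervals were, per cluster and list, the 3 widest and 3 highest-valued, the highest-valued of a single list, and those of the last 70 kb of the type II window; other H3K4me3 members were added after their values were seen. Members, windows and gene lists were chosen with earlier results of these data known. The tiles, gaps, bins, joined sites, width classes, the stretch and the parts of the windows were set after the values were seen. Gene order and promoters come from RefSeq (GRCh38.p14), 1 start per gene, the first listed. The check of H1299 against cell type markers was not made, since gene positions on hg19 were not used here.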

Additional observations from a re-analysis of the deposited data

How the results depend on the processing

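No paired analysis was possible because each mark was profiled in a single library per condition, and no replicate could be left out. With a stricter threshold on both lists (5 or more for H3K4me3, the median of each list for H3K27me3), the share of control H3K4me3 members with a partner was 90.9% (10 of 11) in place of 69.2%, against 90.3% of the whole list. Requiring overlap over 50% or more of an interval, the shares of H3K27me3 members were 72.6% (control) and 56.0% (metformin) in place of 87.3% and 73.0%, against 29.9% and 26.1% of the whole lists. With intervals within 1 kb merged they were 80.5% and 61.4%, against 47.8% and 46.0%. Merging also turned the H3K4me3 ratio of the type I window from 1.04 to 0.92; the gaps it fills count as covered. The other 24 alternative values kept their direction, with shares inside the 95% interval and ratios within 1.5 times. Among them the H3K4me3 ratio of the type II window ran from 1.33 to 1.92, the last with 50 kb removed at both ends, which leaves out the site at chr12:52579556-52587890 and all H3K4me3 intervals after chr12:53299072. The H3K27me3 ratios ran from 1.06 to 1.13 in the type II and from 1.53 to 1.60 in the type I window, and the count of members with both marks was 0 throughout. Not all of the 24 values could have changed. With 0 overlaps of 1 bp, the settings of 200 bp of overlap and of a value of 5 or more must also give 0. Only a search for H3K27me3 within 1 kb could have given another count. The shorter window still held all type II H3K27me3, so that ratio was fixed at 1.10. Depth is unknown, so a longer list or higher values cannot be told apart from a deeper library.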
